A study of Mus musculus with 3 samples.

Results

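The genes examined here encode the machinery that moves, tethers and fills melanosomes, and they comprise 10 genes chosen by name from the 22698 Ensembl genes listed for melan-a cells. They are the RAB27 GTPases *Rab27a* and *Rab27b*, the RAB32 subfamily GTPases *Rab32* and *Rab38*, the RAB27 effectors *Mlph*, *Myrip*, *Exph5*, *Sytl2* and *Sytl4*, and the motor *Myo5a*. The rule is a list of names and uses no threshold on measured values, and all 10 symbols matched an Ensembl gene of the files. RNA-seq was performed on melan-a cells, a line of immortalized mouse melanocytes of C57BL/6J background that the labels trace to *Ink4a-ARF*-/- mice, and 3 bioreplicates labelled 1, 3 and 4 were profiled. The cells received no treatment, although their growth medium contained a phorbol ester (TPA) and cholera toxin. The submitters call them bioreplicates but do not describe how their cultures were separated, so the spread given below is that between these libraries and may be technical. All 3 libraries come from 1 line in 1 condition, so genes are compared with each other within the same libraries.

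Melanosomes are pigment granules that melanocytes build from endosomes and pass on to keratinocytes. Small GTPases of the RAB family mark them and recruit other proteins when bound to GTP. RAB32 and RAB38 sort tyrosinase and TYRP1 to immature melanosomes, whereas RAB27A sits on mature melanosomes and, through melanophilin (*Mlph*), recruits myosin Va (*Myo5a*), which holds the granules on actin at the cell periphery. Loss of any link of this tripartite complex clumps melanosomes around the nucleus and dilutes the coat of the mouse, as in the ashen (*Rab27a*), leaden (*Mlph*) and dilute (*Myo5a*) mutants. Loss of *Rab38* gives the chocolate coat.

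Because several of these genes are paralogs, their coding sequences were first compared, since reads that fit both copies could not be assigned to either. A stretch of 60 coding bases around the switch II region, which changes shape with GTP binding, is shown for 3 of the GTPases because it is among the most conserved parts of the RAB fold. Sequences are from the GENCODE M1 transcripts, 5′ to 3′, and capitals mark bases unlike *Rab38*.
Rab38: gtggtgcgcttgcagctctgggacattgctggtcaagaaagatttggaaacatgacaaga
Rab32: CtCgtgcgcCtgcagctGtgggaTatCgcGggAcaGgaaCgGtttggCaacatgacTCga
Rab27a: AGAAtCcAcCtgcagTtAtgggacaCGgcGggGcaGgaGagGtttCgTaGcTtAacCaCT
*Rab32* differed from *Rab38* at 14 of these 60 bases and *Rab27a* at 24. Of the 20 codons shown, 11 differed between *Rab32* and *Rab38* without changing the amino acid and 1 with a change. Over the aligned coding bases, *Rab38* and *Rab32* were 70.6% identical, and the longest run of bases shared exactly by their transcripts was 14. *Rab27a* and *Rab27b* were 66.7% identical, with a longest shared run of 32 bases. *Mlph* and *Myrip* were 60.4% identical over aligned coding bases and *Sytl2* and *Sytl4* 64%, and neither pair shared a run longer than 13 bases. No exon of the 10 genes overlapped an exon of another gene on either strand, among the 22324 of 22698 listed genes with a GENCODE M1 model.

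The values are FPKM (fragments per kilobase of gene and per 1000000 fragments of the library), scaled by the authors and rounded to 2 decimals, so that levels of different genes are compared per length. From low values that must equal whole reads, the scaled library size was estimated at 53900000 reads for replicate 1, 47000000 for replicate 3 and 66200000 for replicate 4. Of 9 melanocyte markers, 8 reached at least 1 FPKM in every replicate, and the exception was the receptor *Kit* at 0.68 ± 0.095 FPKM (SD, n = 3). None of 6 keratinocyte, 4 leukocyte and 3 endothelial markers reached that level in every replicate. The summed keratinocyte markers lay between 0.36 and 0.7 FPKM with *Krt1*, *Dsg3* and *Trp63* at 0. The leukocyte marker *Cd68* had 1.2, 0.76 and 1.6 FPKM in replicates 1, 3 and 4, and fell short in replicate 3 only. Of 5 fibroblast markers, 1 reached 1 FPKM, namely *Col1a1* at 1.54 FPKM, and the sum of all 5 lay between 1.61 and 1.95 FPKM. *Cdkn2a*, the locus of Ink4a and ARF, was listed at 19.24, 16.49 and 24.32 FPKM. A value for a whole gene does not show which exons its reads came from, so it does not check the deletion.

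Of the 10 genes, 6 reached at least 1 FPKM in all 3 replicates, compared to 44.1% of all listed genes. They were *Rab38*, *Mlph*, *Rab32*, *Myo5a*, *Rab27a* and *Sytl2*, with means from 14.02 to 254 FPKM. The remaining 4 genes, *Rab27b*, *Sytl4*, *Myrip* and *Exph5*, stayed below 1 FPKM in every replicate. The median of the 10 means was 16.6 FPKM, against 0.277 FPKM over all listed genes and 11.2 FPKM over the genes that reached 1 FPKM.

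*Rab38* encodes a GTPase largely restricted to pigment cells and a few secretory cell types, and it lies on the plus strand of mm9 chr7:95578783-95639976. Its FPKM in replicates 1, 3 and 4 were 262.86, 232.48 and 266.9, a mean of 254 ± 18.8 FPKM (SD, n = 3). This was the highest level of the 10 genes, at rank 189 of 22698. *Rab32*, its closest paralog, lies on the minus strand of mm9 chr10:10264809-10278031. It had 56.93, 53.15 and 59.87 FPKM, a mean of 56.6 ± 3.37 FPKM (SD, n = 3) at rank 1194. Both genes were lowest in replicate 3 and highest in replicate 4, and all *Rab38* values lay above all *Rab32* values.

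*Rab38* exceeded *Rab32* by 4.62-fold, 4.37-fold and 4.46-fold in replicates 1, 3 and 4, a mean of 4.48 ± 0.12 (SD, n = 3). It varied less between replicates than either gene did, whose coefficients of variation were 7.41% and 5.95%. Both transcripts had nearly the same GC content, 47.9% and 47.6%.

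*Rab27a*, the GTPase of the transport complex, lies on the plus strand of mm9 chr9:72892672-72945399. It had 19.39, 17.07 and 21.07 FPKM in replicates 1, 3 and 4, a mean of 19.2 ± 2.01 FPKM (SD, n = 3) at rank 3356. *Rab27b*, its paralog in many secretory cells, lies on the minus strand of mm9 chr18:70138785-70301259. It had 0.42, 0.38 and 0.54 FPKM, a mean of 0.447 ± 0.083 FPKM (SD, n = 3). *Rab27b* was low yet clearly above the counting floor. Its values correspond to an estimated 191 to 382 reads per library, whereas 3 reads come to at most 0.00598 FPKM on this gene.

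*Rab27a* exceeded *Rab27b* 46.2-fold in replicate 1, 44.9-fold in replicate 3 and 39.0-fold in replicate 4, a mean of 43.4 ± 3.82 (SD, n = 3). The size of this ratio depends on the length assigned to *Rab27b*, whose 4 annotated transcripts join to 10679 bases while the main coding transcript has 6891. With the latter length, the mean log2 ratio was 4.61, compared to 5.15 with FPKM as deposited, both on the log2(FPKM + 0.1) scale. *Rab27a*, the GTPase of the complex, had the lowest mean FPKM of the expressed GTPases among the members. *Rab38* was 13.3 ± 0.53-fold and *Rab32* 2.96 ± 0.14-fold higher than *Rab27a* (SD, n = 3), and neither pair of genes overlapped.

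**Figure D1:**
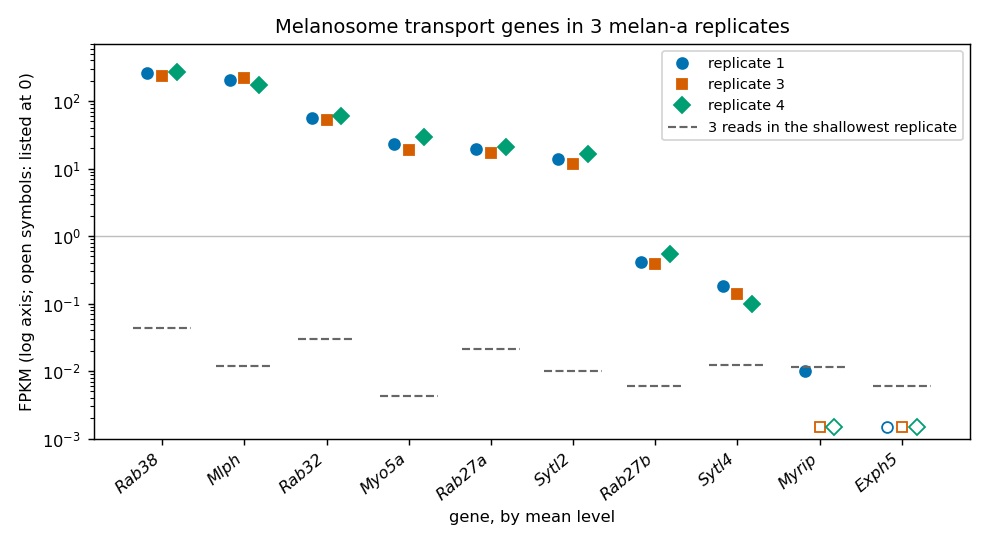
FPKM of the 10 genes (log axis) in melan-a replicates 1, 3 and 4, ordered by mean level, with open symbols for values listed at 0 and dashed lines at the FPKM of 3 reads in the shallowest replicate. The 6 genes on the left lie above the grey line at 1 FPKM in every replicate, *Rab27b* and *Sytl4* lie below it but above 3 reads, and *Myrip* and *Exph5* are at or under the level of 3 reads.

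Among the RAB27 effectors, *Mlph* was by far the highest. Melanophilin binds RAB27A with its N-terminal domain and myosin Va with its middle part. The gene lies on the plus strand of mm9 chr1:92811662-92847719 and its FPKM in replicates 1, 3 and 4 were 202.48, 222.65 and 170.03, a mean of 198 ± 26.5 FPKM (SD, n = 3) at rank 254. Unlike the other 5 expressed genes, *Mlph* was highest in replicate 3 and lowest in replicate 4.

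Transcripts of the other Slac2 proteins were at the limit of detection. *Myrip*, which links RAB27A to myosin VIIa in the retinal pigment epithelium, lies on the plus strand of mm9 chr9:120213054-120383959. It was listed at 0.01 FPKM in replicate 1, an estimated 3 reads, and at 0 in replicates 3 and 4. *Exph5*, which encodes Slac2-b, lies on the plus strand of mm9 chr9:53109775-53185619 and was listed at 0 in all 3 replicates. On this gene 3 reads come to between 0.00431 and 0.00607 FPKM, and the rounding of the files would hide up to 3.48 reads in the deepest library. Expression of *Exph5* and *Myrip* was therefore not detectable at this depth, and no fold against them is given.

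The synaptotagmin-like proteins bind RAB27 and membrane phospholipids. *Sytl2*, whose product Slp2-a anchors melanosomes to the plasma membrane, lies on the plus strand of mm9 chr7:97497209-97558948. It had 13.94, 11.54 and 16.59 FPKM in replicates 1, 3 and 4, a mean of 14.02 ± 2.53 FPKM (SD, n = 3) at rank 4282. *Sytl4*, which encodes granuphilin of insulin granules, lies on the minus strand of mm9 chrX:130470924-130516351 and had 0.18, 0.14 and 0.1 FPKM, or an estimated 34 to 50 reads. The groups of values did not overlap. *Sytl2* exceeded *Sytl4* 77.4-fold in replicate 1, 82.4-fold in replicate 3 and 166-fold in replicate 4, with a mean of 109 ± 49.7 (SD, n = 3) that rests on few *Sytl4* reads. Without replicate 4, the mean log2 ratio was 5.62, compared to 5.88 with all replicates.

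*Myo5a*, the motor of the complex, lies on the plus strand of mm9 chr9:74918822-75071495. Its FPKM in replicates 1, 3 and 4 were 22.79, 18.92 and 29.27, a mean of 23.7 ± 5.23 FPKM (SD, n = 3) at rank 2821. Its values spread the most among the 6 expressed genes, 1.55-fold between the highest and the lowest replicate. *Myo5a* is known to be spliced into forms that differ in their binding to melanophilin, and a value per gene does not tell its 14 annotated transcripts apart.

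Protein was not measured, so the levels within the tripartite complex are those of RNA and do not give the amounts of its parts. *Mlph* was higher than both partners in every replicate. It exceeded *Rab27a* 10.4-fold in replicate 1, 13.0-fold in replicate 3 and 8.07-fold in replicate 4, a mean of 10.5 ± 2.49 (SD, n = 3). It exceeded *Myo5a* 8.88-fold in replicate 1, 11.8-fold in replicate 3 and 5.81-fold in replicate 4, a mean of 8.82 ± 2.98 (SD, n = 3). *Myo5a* and *Rab27a* were nearly level. *Myo5a* was higher in 3 of 3 replicates, by 1.18-fold, 1.11-fold and 1.39-fold in replicates 1, 3 and 4, but the ranges of the 2 genes overlapped. This last ratio is the most sensitive to the length used. The joined exons of *Myo5a* span 14803 bases, but the transcript with its longest coding sequence has 6372. With the shorter length, the mean log2 ratio of *Myo5a* to *Rab27a* moved from 0.28 to 1.496, and that of *Mlph* to *Myo5a* from 3.08 to 2.12 (both log2(FPKM + 0.1), each gene divided by its main coding transcript).

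In all, 11 ratios were compared within replicates by an exact two-sided sign-flip permutation test on log2(FPKM + 0.1). The numerator was higher in 3 of 3 replicates for each, which gives the smallest p this design allows, an exact permutation p of 0.25 (0.25 after Benjamini-Hochberg adjustment over the 11). Thus no ratio could pass a threshold of 0.05, and the size of the ratios is to be read against their SD.

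**Figure D2:**
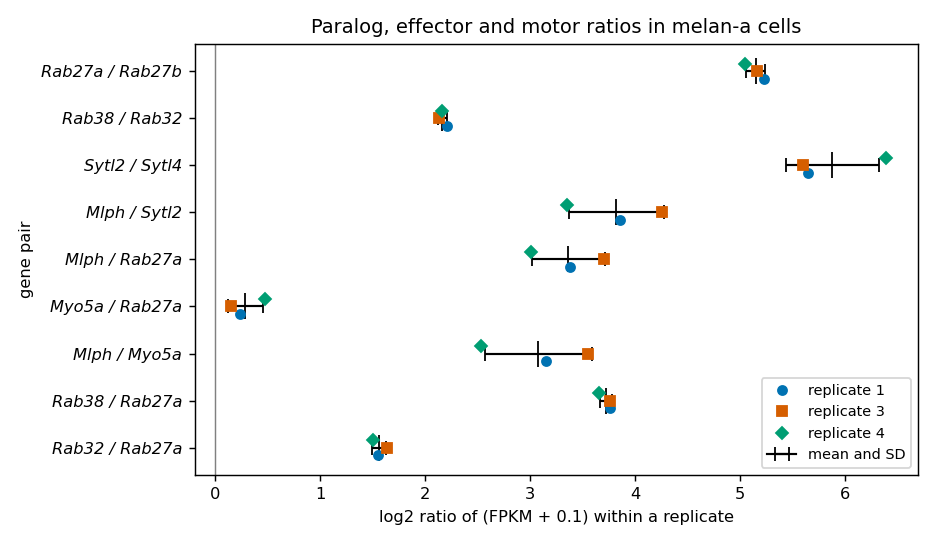
Log2 ratio of FPKM + 0.1 within each melan-a replicate for 9 of the 11 gene pairs (symbols), with the mean and SD (black); the pairs with *Myrip* and *Exph5* are left out because those genes are listed at 0. *Rab38* over *Rab32* is the tightest ratio with an SD of 0.04, ratios of *Mlph* to *Myo5a*, *Sytl2* and *Rab27a* are all lowest in replicate 4, and *Myo5a* over *Rab27a* is the closest to 0.

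Ordered by mean, the levels ran from *Rab38* through *Mlph*, *Rab32*, *Myo5a*, *Rab27a*, *Sytl2*, *Rab27b* and *Sytl4* to *Myrip* and *Exph5*. Of the 9 pairs of neighbours in this order, 7 had values that did not overlap between the genes. The exceptions were *Myo5a* and *Rab27a*, and *Myrip* and *Exph5*. The gap was narrow for *Rab38* over *Mlph*, whose nearest values were 232.48 and 222.65 FPKM, and narrower for *Rab27a* over *Sytl2*, at 17.07 and 16.59 FPKM. The last pair did overlap, at 43.3 and 46.2, after each library was rescaled to sum to 1000000. The order also depends on the gene length. With each gene divided by the length of its main coding transcript, 5 of the 9 pairs were apart. *Myo5a* and *Rab27a*, which overlapped as deposited, were among these, with nearest values of 43.95 and 21.07 FPKM. *Mlph* then had 241, 265 and 202.5 FPKM in replicates 1, 3 and 4 and overlapped *Rab38*, *Myo5a* had 52.94, 43.95 and 68.0 FPKM and overlapped *Rab32*, and the highest *Sytl2* value of 21.9 FPKM lay above the lowest *Rab27a* value of 17.07.

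The replicates differed from each other in a manner that went with base composition. Of the 6 expressed genes, 5 were highest in replicate 4, compared to 43.4% of all genes that reached 1 FPKM, and the exception, *Mlph*, had the highest GC content. *Myo5a* alone changed more than 1.5-fold between replicates 4 and 3, which 12.2% of the 10011 genes at or above 1 FPKM did in the same direction. Between any pair of replicates, 18.8% of those genes differed by more than 1.5-fold. None of the 6 exceeded this fold in the remaining directions, namely replicate 3 over 4 (6.38% of those genes), 4 over 1 (2.34%), 1 over 3 (2.04%), 1 over 4 (1.18%) and 3 over 1 (0.11%). The joined exons of *Myo5a* and *Sytl2* had a GC content of 44.8%, those of *Rab27a*, *Rab32* and *Rab38* 47.3% to 47.9%, and those of *Mlph* 54.1%, around a median of 50.1% for expressed genes.

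For *Myo5a*, the log2 ratio of replicate 4 to replicate 3 was 0.63, and the median of the 500 genes in its range of GC content was 0.33. For *Sytl2* it was 0.52 beside the same median. The ratio was 0.30 for *Rab27a*, 0.17 for *Rab32* and 0.20 for *Rab38*, for which the genes of similar GC content had a median of 0.11. *Mlph* had -0.39, where genes of its GC content had a median of -0.28.

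After each value was divided by the median deviation of its GC range, the coefficient of variation went from 22.1% to 11.1% for *Myo5a*, from 18.01% to 7.13% for *Sytl2*, from 13.4% to 4.66% for *Mlph* and from 10.5% to 6.79% for *Rab27a*. For *Rab38* it went from 7.41% to 4.37% and for *Rab32* from 5.95% to 2.23%. Before adjustment, the median over the 10011 expressed genes was 11.4%. Each of these members differed between replicates 4 and 3 in the direction of its GC range, and by more than that range's median. Their lower spread therefore restates those ratios and is no separate evidence. With these adjusted values, *Mlph* was at 201, 204 and 187 FPKM in replicates 1, 3 and 4, and *Myo5a* at 22.8, 21.1 and 26.2 FPKM. The mean log2 ratio of *Mlph* to *Myo5a* stayed at 3.08, and its SD went from 0.51 to 0.22. The adjustment evens out the replicates with deviations that nearly cancel over them, so it could hardly move this mean. It does not correct for the unlike GC content of *Mlph* and *Myo5a*. Depth also differed between the replicates, and its part in this pattern was not tested.

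**Figure D3:**
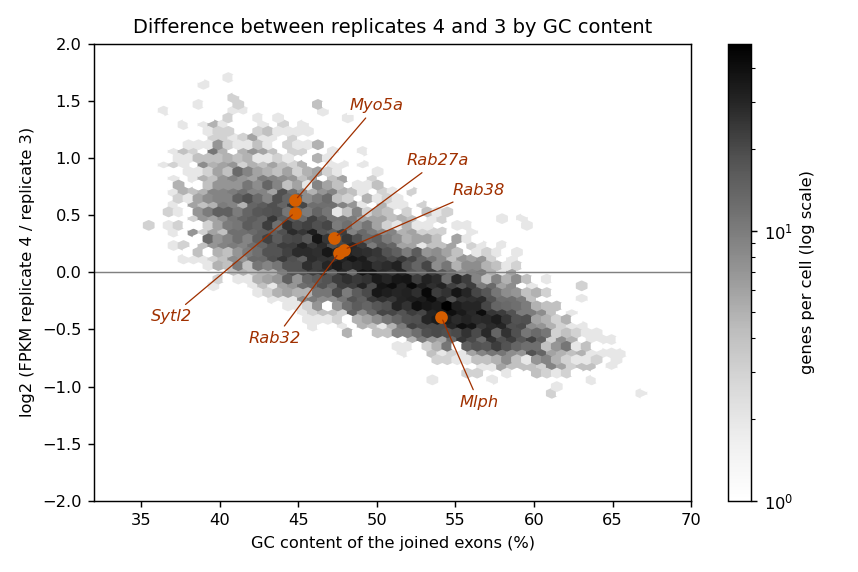
Log2 ratio of FPKM in replicate 4 over replicate 3 against the GC content of the joined exons (percent), for the genes at or above 1 FPKM in every replicate (grey cells, darker for more genes) and the 6 expressed melanosome transport genes (orange). The grey cloud slopes downward, *Myo5a* and *Sytl2* at 44.8% GC lie above 0, and *Mlph* at 54.1% lies below it.

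The wider pathway was examined through lists of other genes around these GTPases. Of 35 non-members, 23 reached 1 FPKM in every replicate, and the median over all 35 was 7.997 FPKM. Of all listed genes, 44.1% reached that level, which is the background for this count and the counts below. None of the 6 effectors outside the members reached 1 FPKM in every replicate, and the highest was *Rph3al*, which encodes Noc2, at 0.99 FPKM, followed by *Unc13d*, the granule-priming factor Munc13-4, at 0.39 FPKM. *Sytl1*, *Sytl3*, *Sytl5* and *Rph3a* lay between 0.01 and 0.093 FPKM. Together with the members, 2 of 11 effectors were expressed, *Mlph* and *Sytl2*.

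Of the myosins, *Myo7a*, the motor that carries melanosomes in the retinal pigment epithelium, had 41.68, 42.74 and 34.77 FPKM, a mean of 39.7 ± 4.33 FPKM (SD, n = 3). These values lay above all those of *Myo5a* with FPKM as deposited, but not with the main coding transcript as length, which gave means of 45.1 FPKM for *Myo7a* and 54.97 for *Myo5a*. *Myo5b* and *Myo5c*, the other class V myosins, were at 0.02 and 0.01 FPKM in every replicate. Of the actin nucleators that work with RAB27A on melanosomes, *Spire1* and *Fmn1* had means of 16.7 and 13.4 FPKM and *Spire2* 0.653 FPKM.

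Of the genes that switch RAB27 on and off or attach its lipid anchor, 6 of 8 were expressed, beside 44.1% of all listed genes. *Madd*, the exchange factor for RAB27, had a mean of 5.02 FPKM. Among the GTPase-activating proteins, *Tbc1d10a* had 23.1 FPKM and *Tbc1d10b* 18.9 FPKM, whereas *Tbc1d10c* had 0.573 FPKM. The prenylation genes *Rabggta* and *Rabggtb* had means of 10.8 and 16.2 FPKM. The escort protein genes *Chm* and *Chml* had 6.21 and 1.24 FPKM, and *Chml* fell short of 1 FPKM in replicate 3 at 0.88.

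All 6 genes on the list drawn up around RAB32 and RAB38, mainly their regulators and partners, reached 1 FPKM. *Hps1* and *Hps4*, which together form the exchange factor BLOC-3, were close to each other at 7.997 ± 1.73 and 8.09 ± 0.29 FPKM (SD, n = 3). *Ankrd27*, which encodes the effector VARP, had 10.2 FPKM, *Sgsm2*, a GTPase-activating protein, 10.1 FPKM, and *Vps33a* 17.9 FPKM. *Mreg*, which encodes melanoregulin, was the lowest at 1.59 FPKM. Each of these genes was thus expressed well below *Rab38* and *Rab32*. The last RAB of the subfamily, *Rab7l1* (also named *Rab29*), had 8.49 FPKM.

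**Figure D4:**
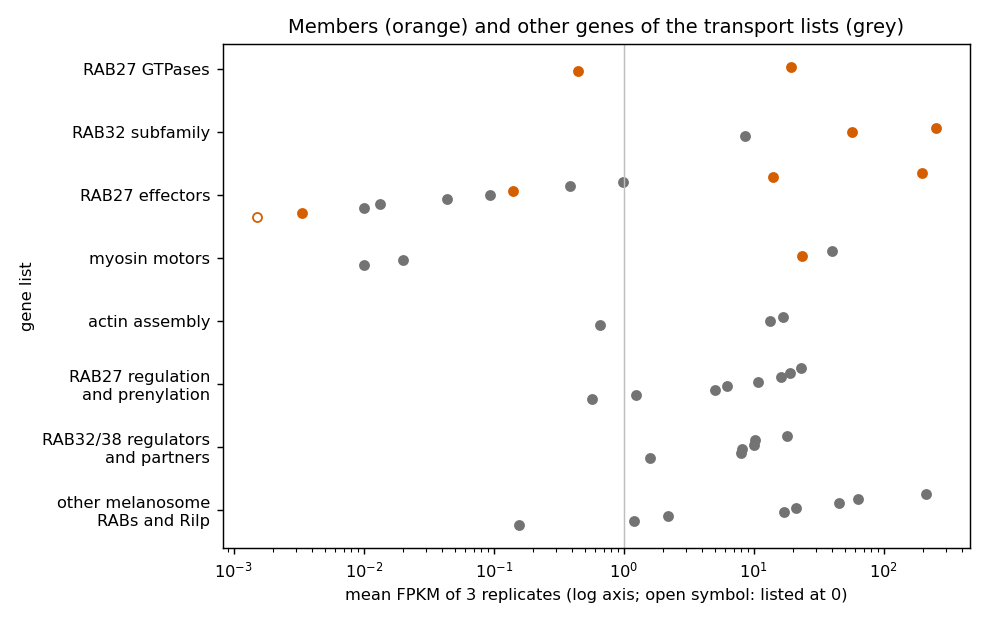
Mean FPKM over the 3 melan-a replicates (log axis) of the genes in 8 transport lists, with the 10 members in orange, other genes in grey, an open symbol for a gene listed at 0 and a grey line at 1 FPKM. In the row of RAB27 effectors only *Mlph* and *Sytl2* pass the line, while all 6 genes in the row of RAB32 and RAB38 regulators and partners do.

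Among RABs, *Rab38* had the highest mean of the 56 genes whose symbol is Rab, a number and at most 1 letter, and it made up 14.4% of their summed FPKM. The next were *Rab7*, the late endosomal RAB, at 212 ± 5.0 FPKM, *Rab1b* at 180 ± 46.1 FPKM and *Rab5c* at 140 ± 23.0 FPKM (SD, n = 3). All values of *Rab38* lay above all values of *Rab7*, whose highest was 217.4 FPKM. With the length of the main coding transcript, *Rab7* had a mean of 257 FPKM, which overlapped *Rab38* and put it at place 2, with *Rab32* at place 13, *Rab27a* at place 27 and *Rab27b* at place 45. *Rab32* was at place 8 with a range that overlapped those of the genes directly above and below it, and *Rab27a* was at place 23. *Rab27b* was at place 44, the first below 1 FPKM. Of the other 52 Rab genes, 40 reached 1 FPKM in every replicate, and their median was 14.03 FPKM.

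Of the other RABs and the RAB7 effector gene on the list of melanosome-associated genes, 7 of 8 were expressed. *Rab1*, also named *Rab1a*, had 62.9 FPKM, *Rab11b* 44.9, *Rab11a* 21.2 and *Rab3a* 17.1 FPKM. *Rilp*, which joins RAB7 to dynein, had 2.18 FPKM and *Rab36* 1.21 FPKM. *Rab17*, which acts at recycling endosomes, was the exception at 0.157 FPKM.

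**Figure D5:**
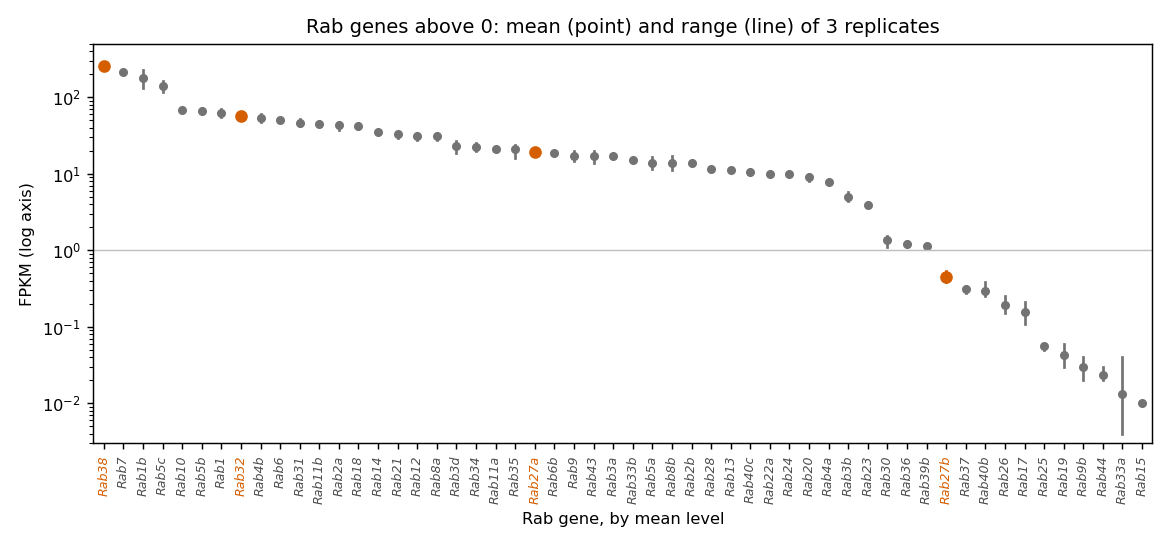
Mean FPKM (points, log axis) and range over 3 melan-a replicates (lines) of the 54 Rab genes with a mean above 0, with *Rab38*, *Rab32*, *Rab27a* and *Rab27b* in orange; a line whose lowest replicate is listed at 0 is drawn to 0.004. With FPKM as deposited, *Rab38* is in place 1 and *Rab32* in place 8, while *Rab27b* is the first gene under the grey line at 1 FPKM.

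The genes with the most similar profile over the 3 replicates were found by the Euclidean distance of log2(FPKM + 0.1), which reflects level and library differences only. For *Rab38* these were *Prss23* and *Calm2*, at distances of 0.117 and 0.146. For *Mlph* they were *Atp6v0b* and *Rnasek*, at 0.055 and 0.058, both likewise highest in replicate 3. For *Rab27a* they were *Snrpa1* at 0.038 and *Rapgef2* at 0.043, and for *Myo5a* *Kidins220* at 0.053 and *Art3* at 0.070.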

How the data were processed

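RNA-seq of 3 melan-a replicates was analysed. Per the study's methods and labels, reads from stranded mRNA libraries lost their first 10 bases and were mapped by STAR 2.3.0e (mm9). After removal of rRNA reads, htseq-count 0.5.3p3 counted the remainder on Ensembl release 67. The authors deposited FPKM values named as TMM-scaled and rounded to 2 decimals. The submitters' processing notes list edgeR without saying for which step, and the gene length behind the FPKM is not given in the sources used here. Low values of genes with several transcripts (58 pairs of gene and replicate) lay closer to whole reads with the length of all joined exons (mean distance 0.149 reads) than with the longest transcript (0.256).

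Lengths, positions, GC content and transcripts came from GENCODE M1 (Ensembl release 65) on NCBIM37, which is mm9. It holds 22324 of the 22698 genes. Library sizes were those at which single-transcript genes gave whole reads, from 118, 116 and 139 genes. Of 3 simulated library sizes, 3 were recovered within an error of 0.2 (in units of 1000000 reads). The simulation used the same gene lengths as the recovery, so it does not cover an error in those lengths. Reads per gene are estimates, and intervals and floors of 3 reads cover counting error only.

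A gene was called expressed at 1 FPKM or more in every replicate. Ratios were formed within replicates on log2(FPKM + 0.1) and tested with an exact sign-flip permutation test. No count test was applied, since FPKM values are not counts. Named genes were the 10 members, the pathway lists, the 3 highest other RABs and the 2 nearest profiles of 4 members. The members and lists were chosen with earlier results of these data known. Alternatives were other pseudocounts, scalings and thresholds, the median and each replicate left out. Adjustment for GC content, another gene length and the alternatives for the order and spread of the levels were added after seeing the data. Tools were Python 3.11.15 with scipy 1.17.1, Biopython 1.88, statsmodels 0.14.6, matplotlib 3.10.9, pandas 2.3.3 and numpy 2.4.6.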

Additional observations from a re-analysis of the deposited data

How the results depend on the processing

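The direction of the 11 ratios cannot change with the pseudocount, the rescaling or a left-out replicate, because each numerator was higher in 3 of 3 replicates. Adjustment within GC ranges could hardly move a mean ratio either, because the deviations it removes nearly cancel over the replicates. Another gene length could change the direction, and did not. It left the ratios among *Rab38*, *Rab32* and *Rab27a* as they were, because each of these genes has 1 annotated transcript. The members that passed in every replicate were 8 of 10 at 0.1 FPKM, where 52.3% of all genes passed, 6 at 5 FPKM (30.8% of all genes) and 8 above 0 (60.1%). The number of expressed members that differed over 1.5-fold between replicates was 1 as reported, 2 after each library was rescaled to sum to 1000000 and 0 after adjustment within GC ranges, and from 0 to 1 with a replicate left out. It was 0 without replicate 3 or without replicate 4, because *Myo5a* differs over 1.5-fold only between those. The mean log2 ratio of *Rab27a* to *Rab27b* ranged from 3.80 with a pseudocount of 1 to 5.40 with a pseudocount of 0.01, and that of *Sytl2* to *Sytl4* from 3.71 to 6.57. Of the 10 mean levels, 8 moved by more than 1 SD when each library was rescaled, since the sum of FPKM then rises (*Rab38* to 676), and 5 moved with the length of the main coding transcript (*Myo5a* to 54.97 FPKM). Adjustment within GC ranges, that transcript length and the alternatives for the order and the spread were chosen after seeing the data. Depth and rounding limit *Myrip* and *Exph5*. Replicates could not be paired between groups, because they form a single group. The pairing used was that of genes within a library, in the ratios.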

Other observations

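In mm9, *Myo5a* and *Mlph* each lie close to a gene of much lower level. The pairs given here were picked by name, without a background for the neighbours of other genes. Listed genes in between were counted among those with a GENCODE M1 position. The 3′ end of *Myo5a* is 8.32 kb from the start of *Myo5c* on the same strand of chromosome 9, with no listed gene in between, and the genes had means of 23.7 and 0.01 FPKM. *Mlph* and *Rab17* lie 6.99 kb apart on opposite strands of chromosome 1, with 1 listed gene between them and means of 198 and 0.157 FPKM. *Rab27a* and *Myo5a* lie 1.97 Mb apart on chromosome 9, which holds 4 of the 10 members and 1263 of the 22324 genes with a position. *Rab38* lies 0.937 Mb from *Tyr*, the gene of tyrosinase, whose mean was 68.7 FPKM.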
